A study of Mus musculus with 4 samples.

Results

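The 38 genes described here encode p53, its relative p73, the regulators that hold p53 in check and direct p53 targets. They are a fixed list of gene names that was chosen with earlier results of these data known. Their values were read from the RNA-seq count table of mouse embryonic stem cells (ESCs), which lists 50559 genes. All 38 were found and all 38 had enough counts to be tested. By role, 2 belong to the p53 family, 3 are feedback regulators, 8 act in arrest and the cell cycle, 5 in DNA repair and nucleotide supply, 5 in metabolism and growth control, 11 are death receptors and effectors, and 4 act in signalling.

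ESCs of the E14 line, which carry a tdTomato transgene under the promoter of the MERVL retrotransposon, were transfected with an siRNA against Cnot1 (siCnot1) or with a non-targeting siRNA (siNT). The siRNA was at 150 nM, the medium of all cells contained recombinant LIF, and cells were collected 48 h after transfection. Each group had 2 independent biological replicates, so there were 4 poly(A)+ libraries in all. CNOT1 holds together the CCR4-NOT deadenylase, which shortens the poly(A) tails of mRNAs, and the comparison asks which transcripts change when it is depleted. The sources used here list a pair of siRNAs against Cnot1 and do not say which was used for these libraries, so loss of Cnot1 and other effects of that siRNA cannot be told apart.

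p53 is a transcription factor that is stabilized by DNA damage and other stress, when its ubiquitin ligase MDM2 lets go of it. It then binds DNA as a tetramer and raises genes that stop the cell cycle, repair DNA, change metabolism or kill the cell, together with its own inhibitors MDM2 and WIP1, which closes a feedback loop. In ESCs p53 is abundant, and it can favour differentiation. Its activity is set largely at the protein level, which these libraries do not measure.

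Library totals on genes were 32135824 to 32557440 counts, so 3 counts, taken as the floor, were 0.0921 to 0.0934 CPM (the counts of a gene scaled to the total of its library), for counting error only. Levels are given as normalized CPM, which are CPM after scaling between libraries by the TMM method, and differences as the log2 fold change of siCnot1 minus siNT, with its standard error (SE). Each adjusted p comes from the quasi-likelihood test of edgeR, corrected by the Benjamini-Hochberg method across the 18144 genes tested. A gene is called higher or lower at an adjusted p under 0.05. Cnot1 itself was at 913 and 986 normalized CPM in the siNT libraries and at 185 and 192 in the siCnot1 libraries, a log2 fold change of -2.33 ± 0.0587 (adjusted p = 2.37e-18) and the smallest p of all genes tested. Among 8 pluripotency markers 6 were lower (14.7% of all tested genes were). Their summed level was 6494 to 6827 normalized CPM in siNT and 5412 to 5655 in siCnot1. Their median siNT level was 350 normalized CPM per kilobase of exon, against 3.36 for all tested genes. The part of level in their calls was not tested. Of 8 markers of 2-cell-like cells, a rare totipotent-like state of ESC cultures, 7 were higher (15.0% of all tested genes were). The sum of these 2-cell-like markers was 75.3 and 75.5 in siNT against 194 and 202 in siCnot1. Their median log2 fold change lay between 1.37 and 1.42 with each library left out in turn. With library totals in place of TMM 3 pluripotency markers were lower (8.61% of all genes), and without siNT replicate 1, siNT replicate 2, siCnot1 replicate 1 and siCnot1 replicate 2 in turn 2, 3, 2 and 5 were (4.49%, 5.82%, 6.50% and 7.61% of all genes). The parts of these marker changes in the results below were not tested. In such bulk libraries, a change in the number of cells of a kind and a change in RNA per cell cannot be told apart.

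The transcripts of the p53 pathway were mostly higher after siCnot1. Of the 38 genes, 26 were higher, 4 were lower and 8 did not pass the test. Against this, 15.0% of all tested genes were called higher and 14.7% lower. The same shares stand beside the counts by role below. In either direction 78.9% of the 38 were called, against 29.7% of all tested genes. The median siNT level of the 38 was 17.4 FPKM (normalized CPM per kilobase of exon), against 3.36 for all tested genes. Small changes pass more easily at higher levels, and the part of level in these counts was not tested. The median log2 fold change of the 38 was 0.29, with a range of -0.72 to 1.85, against 0.0084 over all tested genes. Both siCnot1 libraries lay above both siNT libraries for 29 of the genes (32.7% of all tested genes did so) and below them for 7 (31.2% of all tested genes), and the groups overlapped for Ddb2 and Tnfrsf10b. At the threshold used by the study, a log2 fold change of at least 1 with an unadjusted p of at most 0.05, Fas, Gdf15 and Trp73 were higher, which are 3 of the 38 (6.18% of all tested genes passed), and 0 were lower. Most changes were small, and 10 of the 38 had a log2 fold change above 0.5, as did 17.5% of all tested genes.

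The number of calls depended on having all 4 libraries. When siNT replicate 1 was left out 10 members were higher (3.83% of all genes tested in that fit), and without siNT replicate 2 there were 14 (5.33%). Without siCnot1 replicate 1 or siCnot1 replicate 2 there were 16 higher members each (6.34% and 7.48% of all genes). The median stayed between 0.25 and 0.32 in these 4 fits.

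**Figure D1:**
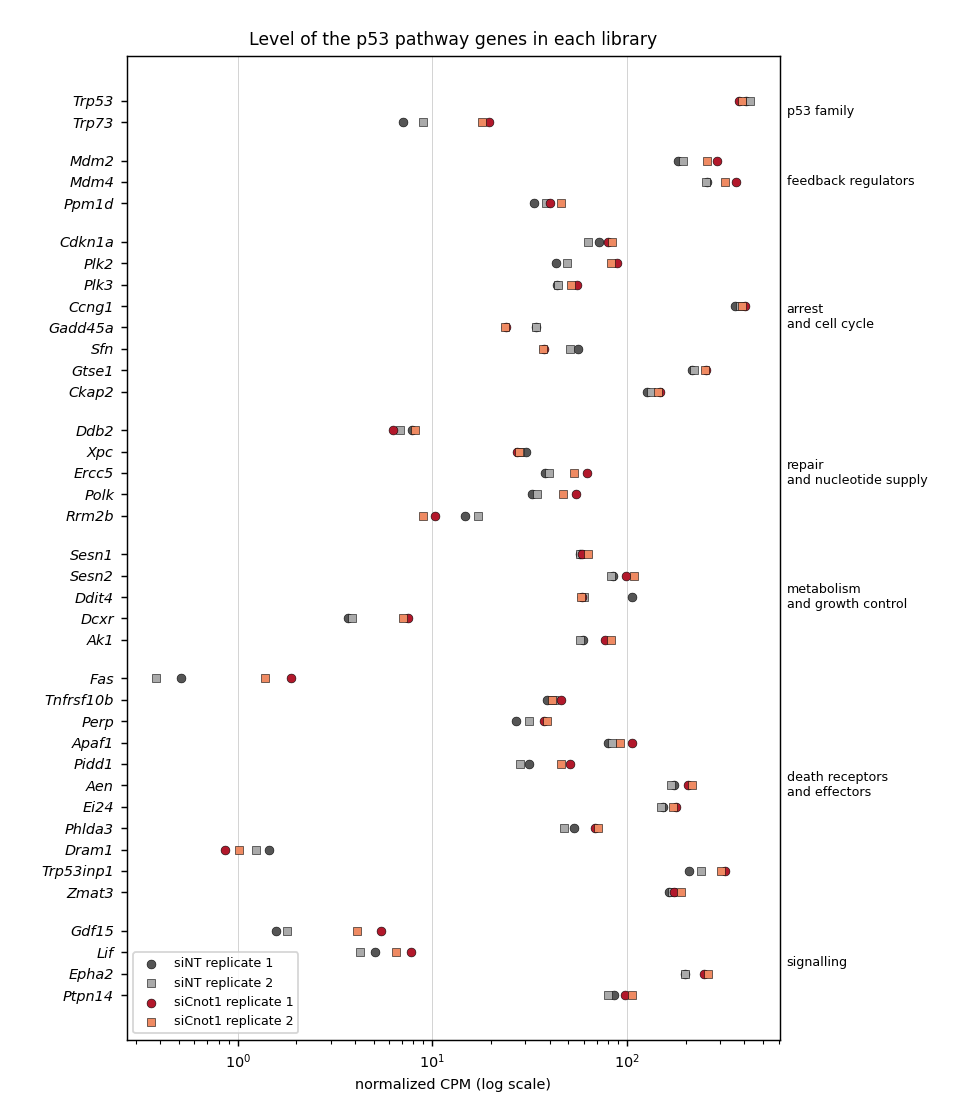
Level of each of the 38 p53 pathway genes in each of the 4 libraries, as normalized CPM on a log axis, grouped by role; each point is 1 library, grey for siNT and red or orange for siCnot1. Both siCnot1 points lie to the right of both siNT points for 29 genes, to the left for 7, and overlap for Ddb2 and Tnfrsf10b.

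p53 acts through a 10-base consensus that occurs in pairs, so the start regions of its genes are shown before their levels. RefSeq windows of 300 bases (GRCm38.p6, 250 before to 50 after a transcription start) were at hand for 31 of the 38 genes, in 42 windows. The consensus (both strands, no mismatch) was found in windows of 12 of the 31 genes (38.7%), against 9.55% of 27025 genes with a window; per window the shares were 31.0% of 42 and 8.36% of 32851. A pair of consensus copies with at most 2 mismatches in all, an intact core and a spacer of at most 13 bases was found in 4 of the 31 genes (12.9%), against 2.47% of all genes. The 4 stretches are shown because they are the paired sites of the list, with the copies, which may overlap, in capitals and in the direction of the gene. Cdkn1a, Gtse1 and Sesn1 each have 2 windows, of which 1 held a pair. Distances are to the transcription start of the window that held it.
Cdkn1a, chr17:29090896-29090957, plus strand, 31 bases between the last capital and the start: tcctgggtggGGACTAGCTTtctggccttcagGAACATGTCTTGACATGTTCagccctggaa
Gtse1, chr15:85859935-85859975, plus strand, across the start: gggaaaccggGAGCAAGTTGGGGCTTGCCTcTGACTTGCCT
Ckap2, chr8:22185988-22186032, minus strand, 178 bases between the last capital and the start: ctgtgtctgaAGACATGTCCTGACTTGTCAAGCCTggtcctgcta
Sesn1, chr10:41887243-41887285, plus strand, 163 bases between the last capital and the start: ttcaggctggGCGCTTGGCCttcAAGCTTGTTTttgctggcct

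Of these genes Cdkn1a, Gtse1 and Ckap2 were higher in siCnot1 and Sesn1 did not pass the test. Cdkn1a, Gtse1 and Ckap2 each have 3 copies in pairs, and Sesn1 has 2. The pair with the fewest mismatches had 0 in Cdkn1a, 1 in Gtse1, and 2 in Ckap2 and in Sesn1. In Cdkn1a that pair is the copy furthest from the start with the middle copy. The copy nearest the start, which abuts the middle one, does not match the consensus exactly. Single consensus copies lay in the windows of Aen, Ccng1, Ei24, Gadd45a, Mdm2, Polk, Ppm1d and Trp53. The stretches of Mdm2 and Gadd45a are shown as examples of a gene that was higher and a gene that was lower.
Mdm2, chr10:117710925-117710954, minus strand, first capital 186 bases before the start: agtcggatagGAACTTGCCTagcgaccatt
Gadd45a, chr6:67037428-67037457, minus strand, first capital 40 bases before the start: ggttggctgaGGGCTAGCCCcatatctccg

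By call, the consensus was present for 8 of the 24 higher genes with a window, 1 of the 3 lower genes and 3 of the 4 genes that did not pass. These letters are a description of 300 bases only, since p53 sites often lie elsewhere, such as in introns, and binding was not measured. Gene positions given from here on are those of the count table, which are GRCm39, and are not comparable with the GRCm38.p6 positions above.

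In the p53 family, Trp53 did not pass the test while Trp73 rose. Trp53 (chromosome 11, 69471174 to 69482699, plus strand), which encodes p53, was at 409 and 429 normalized CPM in siNT and at 375 and 391 in siCnot1. The groups did not overlap, siCnot1 being below siNT, but the difference was small at a log2 fold change of -0.13 ± 0.0551 (adjusted p = 0.0785). Per length Trp53 had the highest level of the 38 genes, at 183 FPKM (normalized CPM per kilobase of exon) in siNT and 167 in siCnot1. Trp73 (chromosome 4, 154140706 to 154224332, minus strand) encodes p73, which binds similar DNA sites and is made in activating and inhibitory isoforms that counts per gene do not separate. It was at 7.10 and 8.90 normalized CPM in siNT and at 19.5 and 17.9 in siCnot1, with no overlap. Its log2 fold change was 1.23 ± 0.137 (adjusted p = 4.42e-07), and with each library left out in turn it was called each time, at 1.07 or more.

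All 3 feedback regulators rose, with a median log2 fold change of 0.42. Mdm2 (chromosome 10, 117524780 to 117546663, minus strand), the ubiquitin ligase that degrades p53 and is itself a p53 target, was at 182 and 194 normalized CPM in siNT and at 290.0 and 259 in siCnot1. Every siCnot1 library was higher than every siNT library, and the log2 fold change was 0.55 ± 0.0625 (adjusted p = 6.27e-07). Mdm4, the MDM2 partner that masks the activation domain of p53 and whose splicing decides whether protein is made, had 256 and 253 in siNT and 364 and 317 in siCnot1. Its log2 fold change was 0.42 ± 0.0619 (adjusted p = 1.78e-05), and counts per gene do not separate its splice forms. Ppm1d, the phosphatase WIP1 that reverses damage signalling, had 33.4 and 38.3 in siNT and 40.3 and 45.7 in siCnot1. Its log2 fold change was 0.26 ± 0.0963 with an adjusted p of 0.0449, and it passed in 7 of 13 alternative analyses. Leaving out each library in turn put the median of the 3 between 0.34 and 0.51. Fewer of the 3 were then called higher, as were fewer of all tested genes.

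**Figure D2:**
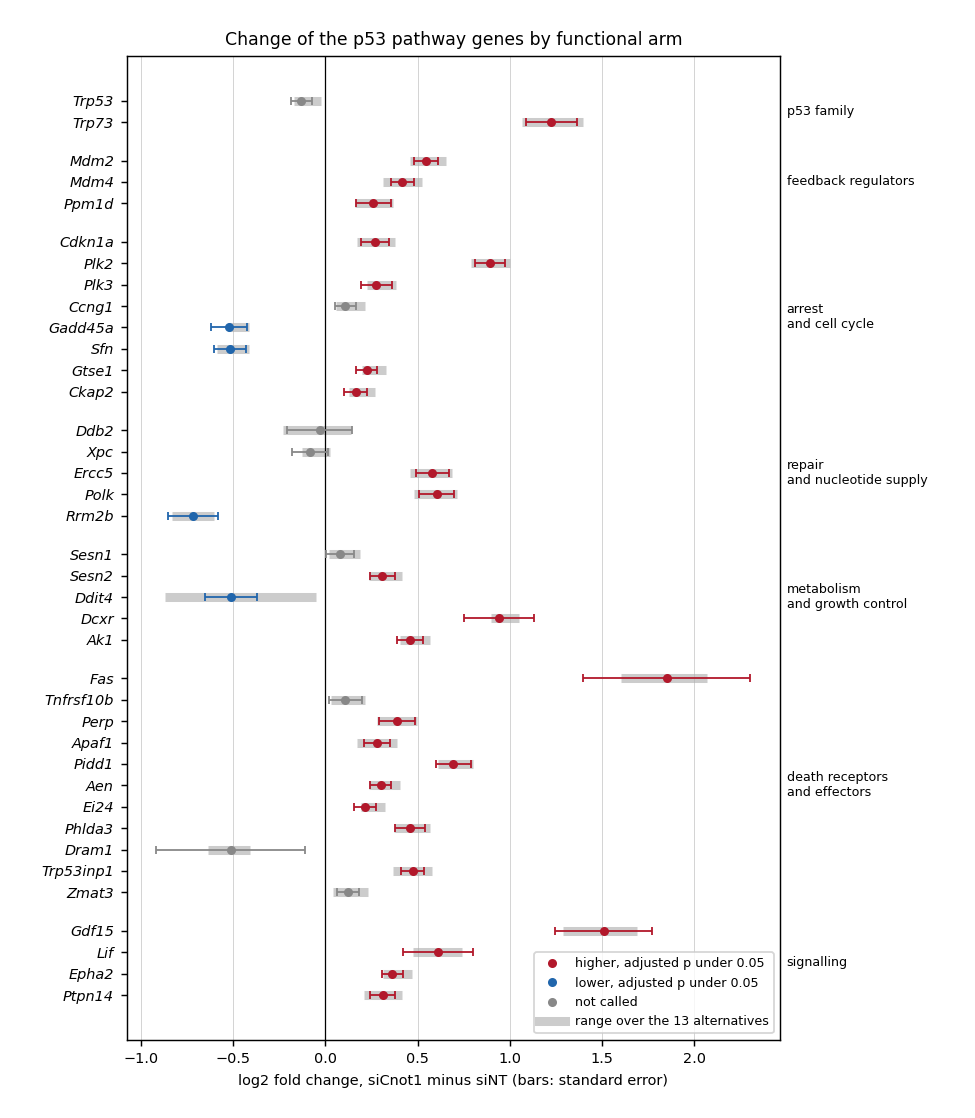
Log2 fold change of each of the 38 genes (siCnot1 minus siNT), grouped by role. Points are the edgeR estimates coloured by call, thin bars their standard errors, and grey bands the range over the 13 alternative analyses. The 26 higher genes are spread over all 7 roles, the 4 lower genes are Gadd45a, Sfn, Rrm2b and Ddit4, and the band of Ddit4 reaches from -0.87 to -0.05.

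In the arrest and cell cycle arm, 5 of 8 genes rose, 2 fell and 1 did not pass, with a median of 0.19. Cdkn1a (chromosome 17, 29309953 to 29319696, plus strand) encodes p21, the inhibitor of cyclin-dependent kinases that carries out p53-dependent arrest. It was at 72.1 and 62.7 normalized CPM in siNT and at 79.4 and 83.2 in siCnot1, which did not overlap, for a log2 fold change of 0.27 ± 0.0757 (adjusted p = 0.00857). It lost its call without siNT replicate 2 (0.17, adjusted p = 0.187), siCnot1 replicate 1 (0.30, adjusted p = 0.0856) or siCnot1 replicate 2 (0.23, adjusted p = 0.183). Plk2, a polo-like kinase induced by stress, changed most in this arm. Its libraries had 42.9 and 49.4 in siNT against 88.4 and 83.1 in siCnot1, a log2 fold change of 0.89 ± 0.0799 (adjusted p = 1.78e-08). Its relative Plk3 had 43.7 and 44.4 against 55.0 and 51.6, a log2 fold change of 0.28 ± 0.0832 (adjusted p = 0.0142).

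The lower genes of the same arm are both classical damage-induced genes. Gadd45a, a stress sensor that blocks the G2 to M transition, was at 34.2 and 34.1 normalized CPM in siNT and at 23.9 and 23.7 in siCnot1, with replicates nearly equal within each group. It had a log2 fold change of -0.52 ± 0.0964 (adjusted p = 0.000221). Sfn, 14-3-3 sigma, which holds mitotic cyclin-kinase complexes in the cytoplasm, had 55.9 and 50.7 against 37.6 and 36.8. It had a log2 fold change of -0.52 ± 0.0868 (adjusted p = 7.59e-05). Both kept their direction and call in all 13 alternatives.

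Gtse1, a microtubule protein that restrains p53 in G2, and Ckap2, a spindle protein, rose slightly. Gtse1 had 215 and 220 normalized CPM in siNT and 254 and 252 in siCnot1, a log2 fold change of 0.22 ± 0.0558 (adjusted p = 0.00372). Ckap2 had 127 and 133 against 147 and 143, a log2 fold change of 0.16 ± 0.0605 (adjusted p = 0.0438), and was called in 5 of 13 alternatives. Ccng1, cyclin G1 and one of the strongest p53 targets in many tissues, had 357 and 382 against 405 and 391. Its log2 fold change of 0.11 ± 0.0558 did not pass (adjusted p = 0.154). Plk2 kept its call with each library left out in turn. In these fits the median of the arm lay between 0.16 and 0.20. Fewer genes of the arm were then called higher, as were fewer of all tested genes.

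The repair and nucleotide supply arm was divided, with 2 genes higher, 1 lower and 2 that did not pass. Its median was -0.03, a sign that turned to 0.076 with library totals in place of TMM. Ercc5, the endonuclease XPG of nucleotide excision repair, was at 37.7 and 39.8 normalized CPM in siNT and at 62.3 and 53.5 in siCnot1, a log2 fold change of 0.58 ± 0.0896 (adjusted p = 2.98e-05). Polk, a polymerase that copies past damaged bases, had 32.3 and 34.5 against 54.8 and 46.7, a log2 fold change of 0.60 ± 0.0942 (adjusted p = 3.30e-05). In both genes siCnot1 replicate 1 was the highest library.

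Rrm2b (chromosome 15, 37924196 to 37961363, minus strand) encodes the p53-inducible subunit of ribonucleotide reductase, which makes deoxynucleotides for repair, and it had the most negative log2 fold change of the list. It was at 14.7 and 17.1 normalized CPM in siNT and at 10.3 and 8.97 in siCnot1, a log2 fold change of -0.72 ± 0.136 (adjusted p = 0.000285). Without siNT replicate 2 it was -0.60 and no longer called (adjusted p = 0.0641). The damage recognition factors Ddb2 and Xpc did not pass. Ddb2 had 7.88 and 6.86 against 6.30 and 8.13, which overlapped, and a log2 fold change of -0.03 ± 0.176 (adjusted p = 0.924). Xpc had 30.1 and 28.3 against 27.3 and 27.8, a log2 fold change of -0.08 ± 0.0975 (adjusted p = 0.576). Ercc5 and Polk had log2 fold changes of 0.53 and 0.55 without siNT replicate 1 and were no longer called. Fewer of all tested genes were called in that fit as well.

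In metabolism and growth control, 3 of 5 genes rose, with a median of 0.31. Sesn2, a sestrin that restrains mTORC1 when amino acids are short, was at 84.3 and 83.1 normalized CPM in siNT and at 99.0 and 108 in siCnot1, a log2 fold change of 0.31 ± 0.0669 (adjusted p = 0.00109). Its relative Sesn1 had 57.2 and 57.5 against 58.4 and 62.7, a log2 fold change of 0.08 ± 0.0773 that did not pass (adjusted p = 0.488). Ak1, an adenylate kinase that balances adenine nucleotides, had 59.4 and 57.1 against 77.4 and 82.8, a log2 fold change of 0.46 ± 0.0728 (adjusted p = 4.03e-05). Dcxr, a reductase of sugars and dicarbonyls, had 115 and 121 counts in siNT and 250 and 236 in siCnot1, with no overlap. In normalized CPM this was 3.70 and 3.86 against 7.46 and 7.05, a log2 fold change of 0.94 ± 0.19 (adjusted p = 0.00056).

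Ddit4 (REDD1), an mTORC1 inhibitor induced by hypoxia and stress, was called lower, and that call rested on 1 library. It was at 106 and 60.1 normalized CPM in siNT and at 58.6 and 57.8 in siCnot1, so siNT replicate 1 stood apart and the other siNT library lay close to both siCnot1 libraries. The log2 fold change was -0.51 ± 0.14 (adjusted p = 0.00729). It was -0.05 without siNT replicate 1 (adjusted p = 0.681) and -0.87 without siNT replicate 2 (adjusted p = 0.0102). With DESeq2 it did not pass (log2 fold change -0.52, adjusted p = 0.38). The median of the arm lay between 0.24 and 0.37 with each library left out in turn. Fewer genes of the arm were called higher without siNT replicate 1, siNT replicate 2 or siCnot1 replicate 2, as were fewer of all tested genes.

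Among the 11 death receptors and effectors, 8 rose, 0 fell and 3 did not pass, with a median of 0.30. Fas (chromosome 19, 34267926 to 34305175, plus strand), the receptor of Fas ligand that starts caspase activation from the cell surface, had the largest log2 fold change of the list and also its lowest level per length, 0.183 FPKM in siNT and 0.664 in siCnot1. It had 16 and 12 counts in siNT and 63 and 46 in siCnot1, or 0.514 and 0.383 against 1.88 and 1.37 normalized CPM. The log2 fold change was 1.85 ± 0.453 (adjusted p = 0.00316). It was at most 2.07 and at least 1.6 with each library left out, but of those fits it was called only without siCnot1 replicate 2 (adjusted p = 0.0681, 0.0852 and 0.0924 without siNT replicate 1, siNT replicate 2 and siCnot1 replicate 1). Tnfrsf10b, the mouse TRAIL death receptor, was at 38.9 and 41.9 against 45.8 and 41.3, which overlapped, and its log2 fold change of 0.11 ± 0.0901 did not pass (adjusted p = 0.404).

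The scaffolds of caspase-activating complexes were both higher. Pidd1, the p53-induced scaffold of the PIDDosome that activates caspase-2, was at 31.5 and 28.0 normalized CPM in siNT and at 50.8 and 45.7 in siCnot1, a log2 fold change of 0.69 ± 0.0948 (adjusted p = 6.24e-06). Apaf1, the scaffold of the apoptosome, had 79.6 and 84.0 against 106 and 92.4, a log2 fold change of 0.28 ± 0.0722 (adjusted p = 0.00463). Perp, a membrane protein of desmosomes and a p53 effector in apoptosis, had 26.9 and 31.3 against 37.3 and 39.0, a log2 fold change of 0.39 ± 0.098 (adjusted p = 0.00402). Pidd1 was called in each of the 13 alternatives, and Apaf1 and Perp in 9 each.

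Trp53inp1, a nuclear cofactor that favours the proapoptotic activity of p53, was the most abundant of the other effectors per length after Ei24, and both were higher. Trp53inp1 was at 208 and 240.5 normalized CPM in siNT and at 319.5 and 303 in siCnot1, a log2 fold change of 0.47 ± 0.064 (adjusted p = 5.51e-06). Ei24, a protein of the endoplasmic reticulum that acts in autophagy, had 153 and 149 against 177 and 173, a log2 fold change of 0.21 ± 0.0584 (adjusted p = 0.00707). Phlda3, which competes with Akt for membrane lipids and so limits survival signalling, had 53.5 and 47.4 against 68.3 and 70.5, a log2 fold change of 0.46 ± 0.0799 (adjusted p = 0.000115). In each of these genes the groups were apart.

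Aen, an apoptosis-enhancing nuclease, had 174 and 168 normalized CPM in siNT and 205 and 216 in siCnot1, a log2 fold change of 0.30 ± 0.0581 (adjusted p = 0.000379). Zmat3, an RNA-binding zinc finger protein, and Dram1, a lysosomal protein of autophagy, did not pass. Zmat3 had 165 and 170 against 175 and 189, a log2 fold change of 0.12 ± 0.0599 (adjusted p = 0.131). Dram1 had 45 and 39 counts against 29 and 34, a log2 fold change of -0.51 ± 0.402 (adjusted p = 0.371), so a difference was not detectable at this depth. The median of the 11 genes lay between 0.28 and 0.35 with each library left out in turn. Fewer of the 11 were then called higher, as were fewer of all tested genes.

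All 4 signalling genes rose, with a median of 0.49. Gdf15 (chromosome 8, 71082043 to 71085106, minus strand), a secreted stress hormone of the TGF-beta family, had 49 and 56 counts in siNT and 183 and 138 in siCnot1, or 1.58 and 1.79 against 5.46 and 4.12 normalized CPM. Its log2 fold change was 1.51 ± 0.262 (adjusted p = 0.000115), and without siNT replicate 1 it was 1.42 and just missed the threshold (adjusted p = 0.0546). Lif, the cytokine that sustains ESC self-renewal and that was also supplied in the medium, had 5.08 and 4.24 against 7.73 and 6.49, a log2 fold change of 0.61 ± 0.19 (adjusted p = 0.0177). Its call held in 7 of 13 alternatives.

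Epha2, an ephrin receptor tyrosine kinase, was at 198 and 197 normalized CPM in siNT and at 249 and 259.9 in siCnot1, a log2 fold change of 0.36 ± 0.0566 (adjusted p = 3.30e-05). Ptpn14, a phosphatase that restrains the coactivator YAP, had 85.3 and 79.4 against 98.1 and 106, a log2 fold change of 0.31 ± 0.0682 (adjusted p = 0.00123). Both had their siCnot1 libraries above the siNT libraries. The median of the 4 signalling genes lay between 0.42 and 0.55 with each library left out in turn. Fewer of them were then called higher, as were fewer of all tested genes.

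Ordered by level per length in siNT, Trp53 (183 FPKM), Ccng1 (105), Gtse1 (77.0) and Ei24 (63.5) led the list, and Trp73 (1.53), Gdf15 (0.908), Lif (0.852), Dram1 (0.387) and Fas (0.183) closed it. The 3 genes with a log2 fold change above 1 were thus among the 5 lowest, while the log2 fold changes of the 4 most abundant lay between -0.13 and 0.22. Across the 38 genes Spearman's rho of the log2 fold change with siNT FPKM was -0.35, and across all 18144 tested genes it was -0.35 as well; the points share libraries, and the siNT values enter both axes. With exon length rho was 0.21 for the 38 genes and 0.18 for all. When a length trend was removed from each library, 26 genes were again higher and 4 lower, with a median of 0.26. In that fit 14.5% of all tested genes were higher and 16.9% lower.

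**Figure D3:**
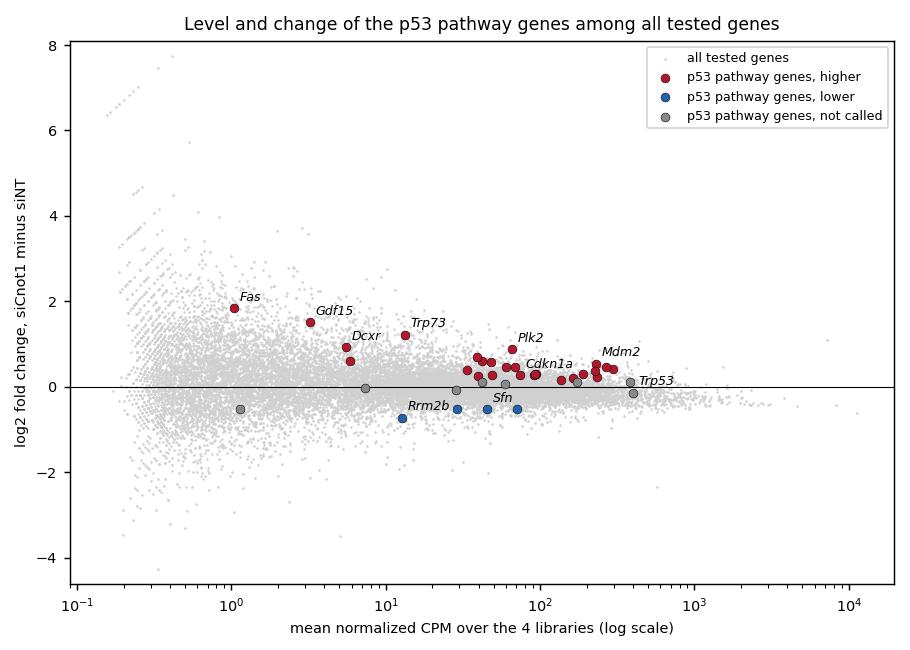
Mean normalized CPM over the 4 libraries (log axis) against the log2 fold change, siCnot1 minus siNT, for all 18144 tested genes (small grey points) and the 38 p53 pathway genes (large points coloured by call). Fas, Gdf15 and Trp73 combine low levels with the largest changes, and the more abundant members lie closer to 0.

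Some members overlap neighbouring genes. Of the 38 genes 13 overlap another listed gene and 10 share exon bases with one, in 0 cases on the same strand; the strand setting of the counting is not given in the sources used here. The longest shared stretches were those of Dram1 with Washc3 (1339 bases) and of Ddb2 with Acp2 (1036 bases), and neither Dram1 nor Ddb2 was called. Apaf1 shares 22 of its 6743 exon bases with Ikbip, which was higher (log2 fold change 0.70).

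A second list, also chosen with earlier results of these data known, held 35 further p53 targets that are not among the 38. Of 33 tested, 16 were higher (48.5%, against 15.0% of all tested genes), 6 lower (18.2%, near the 14.7% of all tested genes) and 11 did not pass, the median being 0.23, and Spata18 and Casp1 had too few counts to be tested. Without siNT replicate 1, siNT replicate 2, siCnot1 replicate 1 and siCnot1 replicate 2 in turn, 8, 10, 11 and 10 were higher (3.83%, 5.33%, 6.34% and 7.48% of all genes) and 1, 2, 2 and 3 lower (4.49%, 5.82%, 6.50% and 7.61%). The 3 with the smallest p were all higher. Tap1, a subunit of the peptide transporter of antigen presentation, was at 2.12 and 2.23 normalized CPM in siNT and at 15.5 and 9.77 in siCnot1, a log2 fold change of 2.53 ± 0.215 (adjusted p = 8.62e-09). Pltp, a phospholipid transfer protein, had 17.0 and 15.4 against 45.3 and 36.2, a log2 fold change of 1.33 ± 0.113 (adjusted p = 9.08e-09), and Ephx1, an epoxide hydrolase, had 7.62 and 5.58 against 25.6 and 19.8, a log2 fold change of 1.78 ± 0.153 (adjusted p = 1.01e-08). All 3 siCnot1 levels were above the siNT levels by more than the spread of the replicates. The mitochondrial death genes of this list, which were picked here after their values were seen, did not move together: Bax was higher (0.23 ± 0.0675, adjusted p = 0.0134), Pmaip1 (Noxa) and Bid were lower (-0.32 ± 0.0718 and -0.43 ± 0.0742, adjusted p = 0.00167 and 0.000104), and Bbc3 (Puma) did not pass (0.20 ± 0.109, adjusted p = 0.183).

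Of 19 kinases and modifiers that act on p53, 2 were higher (10.5%) and 6 lower (31.6%), against 15.0% and 14.7% of all tested genes. Their median siNT level was 10.8 FPKM, against 3.36 for all tested genes, and the part of level was not tested. The median log2 fold change was -0.05 and became 0.058 with library totals. In that scaling 4 were higher and 4 lower, while 22.0% of all tested genes were higher and 8.61% lower. The 3 with the smallest p were lower: Rpl11 and Rpl5, ribosomal proteins that can bind MDM2 when ribosome assembly fails, and Trp53bp1, a chromatin adaptor at DNA breaks that also binds p53. Rpl11 was at 600.2 and 551 normalized CPM in siNT and at 416 and 444 in siCnot1 (log2 fold change -0.42 ± 0.0576, adjusted p = 6.34e-06). Rpl5 had 1286 and 1226 against 996 and 1004 (-0.33 ± 0.0523, adjusted p = 4.10e-05), and Trp53bp1 had 92.9 and 93.2 against 74.6 and 71.1 (-0.35 ± 0.0673, adjusted p = 0.000314). These 3 were also lower with library totals. With each library left out in turn, the median of the 19 stayed between -0.082 and -0.049, and fewer genes were called.

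Cell cycle genes that p53 lowers through p21 and the DREAM repressor complex had log2 fold changes between -0.32 and 0.24. Of 23 tested, 2 were higher (8.70%), 7 lower (30.4%) and 14 did not pass. Among all tested genes 15.0% were higher and 14.7% lower. The median siNT level of the 23 was 63.1 FPKM, against 3.36 for all tested genes. The part of level in these counts was not tested. The median log2 fold change of the 23 was -0.10 and became 0.0038 with library totals. In that scaling 3 were higher and 1 lower, against the same 22.0% and 8.61% of all tested genes. Cdc20, an activator of the anaphase-promoting complex, was at 382 and 366 normalized CPM in siNT and at 288 and 313 in siCnot1 (log2 fold change -0.32 ± 0.0575, adjusted p = 0.000194). It was also lower with library totals (-0.21, adjusted p = 0.00535). The replication helicase subunit Mcm7 (-0.23 ± 0.0536, adjusted p = 0.00183) and the transcription factor Mybl2 (-0.23 ± 0.0536, adjusted p = 0.0022) were not called with library totals (adjusted p = 0.0607 and 0.069). With each library left out in turn, the median of this list lay between -0.13 and -0.086, and fewer genes were called.

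Some p53 targets also answer to the integrated stress response, in which ATF4 raises genes for amino acid supply, and Gdf15, Sesn2 and Ddit4 are on both lists. Of the 12 genes of that response outside the 38, 4 were higher, 0 lower and 8 did not pass, with a median of 0.24. That is 33.3% higher, against 15.0% of all tested genes, while 14.7% of all tested genes were lower. Of all 15 genes of the response 6 were higher (40%), with a median of 0.25. Without siNT replicate 1, siNT replicate 2, siCnot1 replicate 1 and siCnot1 replicate 2 in turn it was 0.23, 0.26, 0.26 and 0.15. Fewer genes of the response were called higher in each of these fits. Outside the 38, Slc3a2, the heavy chain of amino acid transporters, had the smallest p, at 198 and 201 normalized CPM in siNT against 238 and 236 in siCnot1 (log2 fold change 0.25 ± 0.056, adjusted p = 0.00158). Asns, asparagine synthetase and a standard ATF4 target, picked here after its value was seen, had 298 and 313 against 279 and 289 and did not pass (-0.10 ± 0.0559, adjusted p = 0.17). Atf4, Atf5 and Atf3, named here as the other higher genes of the 12, had log2 fold changes of 0.31, 0.61 and 1.10. Their adjusted p were 0.00313, 0.00275 and 0.0122 in the edgeR test.

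**Figure D4:**
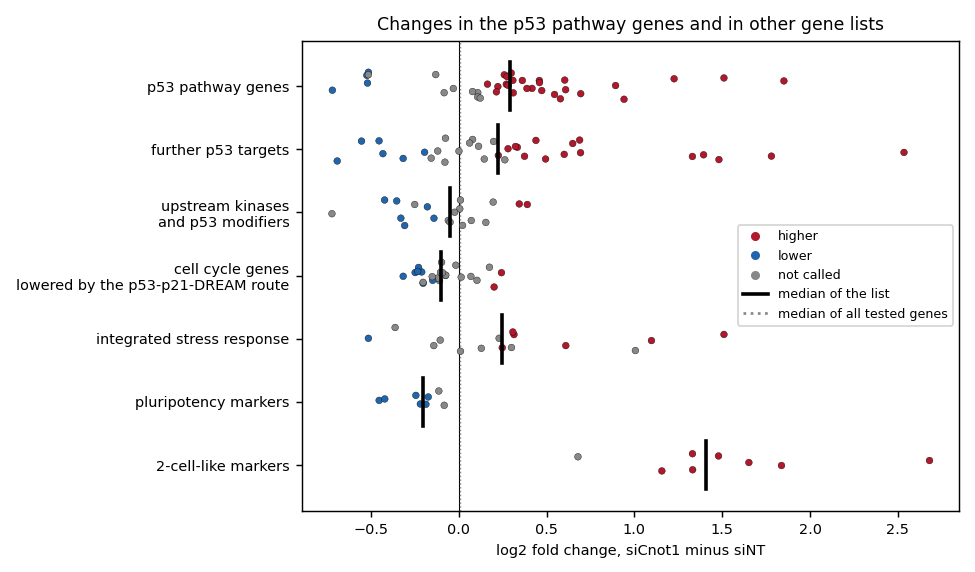
Log2 fold changes (siCnot1 minus siNT) of the tested genes in 7 lists; each point is a gene coloured by call, the black bar is the median of the list and the dotted line the median of all tested genes. The medians are 0.29 for the 38 p53 pathway genes, 0.23 for further p53 targets, -0.05 for upstream kinases and modifiers, -0.10 for the DREAM cell cycle genes and 1.41 for 2-cell-like markers. Points are spread vertically for visibility only.

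Markers of other cell types were low, and their calls stand against 15.0% of all tested genes higher and 14.7% lower. Primitive endoderm markers summed to 14.8 and 12.6 normalized CPM in siNT and to 22.9 and 22.2 in siCnot1, with Dab2 and Pdgfra higher among 6 tested of 7. Trophectoderm markers summed to 39.7 and 42.0 against 34.4 and 30.3, with Krt8 and Krt18 lower and Krt7 higher among 7 tested of 8. Krt7 had 2 and 4 counts in siNT, and 0 trophectoderm markers were higher with DESeq2, with no low-count filter or with any 1 library left out, while 1, 1, 2 and 1 were lower without siNT replicate 1, siNT replicate 2, siCnot1 replicate 1 and siCnot1 replicate 2. Fibroblast markers summed to 8.94 and 12.2 against 13.3 and 12.8, with Col1a1 higher among 3 tested of 7 and Col3a1 and Dcn at 0 in all 4 libraries. Without siNT replicate 1, 1 primitive endoderm marker and 0 fibroblast markers were higher. Their parts in the p53 pathway values were not tested.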

How the data were processed

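Poly(A)+ RNA of siNT and siCnot1 ESCs was sequenced by the authors on the Illumina NovaSeq platform. The sample labels give 2 replicates per group, and the paper's methods call the replicates biological. The authors deposited raw counts per gene, without normalization or pooling, and the exon length of each gene. The submitters' processing notes name fastp 0.19.4, HISAT2 2.2.1, DESeq2 1.40.2 and mm10; the counting program and its strand setting are not given in the sources used here. Of 48908 genes matched by name, 1194 have the start they have in GRCm38, and the deposited positions are those of GRCm39. Totals per library were 32135824 to 32557440 counts.

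Counts were scaled with TMM and tested with edgeR 4.0.16 in R 4.3.3 (quasi-likelihood test, condition as the only term, all 4 libraries, filterByExpr with a minimum count of 10, Benjamini-Hochberg adjustment over 18144 genes). SE was taken as the size of the log2 fold change over the root of the F statistic. FPKM is normalized CPM per kilobase of exon. Alternatives were other scalings (DESeq2 size factors, upper quartile, library totals), no low-count filter or a minimum of 1 CPM in any 2 libraries, DESeq2 1.42.0, limma-voom (limma 3.58.1), a replicate block, a length offset per library (lowess span 0.3), and leaving out each library in turn, where the lone library is assumed to vary like the others. On simulated data with 17670 genes, the edgeR fit for siCnot1 against siNT called 128 of 196 genes changed 2-fold, with 2 false calls. Far fewer genes were changed there than the 5387 called in these data. Genes of like level were also given the same replicate spread. The figures are therefore not the error rates of this comparison. Pearson's r of log2 CPM across genes was 0.988 and 0.989 between replicates and 0.976 to 0.977 between groups. Replicates differed by more than counting noise (chi-square per degree of freedom 6.57 and 5.57), so no library was a copy. The members, the roles and the other lists were chosen with earlier results of these data known. Named genes were all members, Cnot1, at most 3 genes with the smallest p per other list, markers at 0 and genes that overlap a member; others are marked where they appear.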

Additional observations from a re-analysis of the deposited data

How the results depend on the processing

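The 26 higher and 4 lower members kept their direction in all 13 alternatives. Of these 30, 10 also kept their call: Trp73, Mdm2, Plk2, Ak1, Pidd1, Phlda3, Trp53inp1 and Epha2 (higher) and Gadd45a and Sfn (lower). Library totals in place of TMM moved the all-gene median from 0.0084 to 0.12 and the share of higher genes among all calls from 50.5% to 71.9%, with 1563 genes lower. The median of the members was then 0.40 (0.28 above the median of all genes, as with TMM), Ddb2 and Xpc turned to 0.076 and 0.025, and Ccng1 (0.22) and Zmat3 (0.23) passed. With no low-count filter, 30308 genes were tested, of which 1303 were higher and 1450 lower, with 19 members higher (4.30% of all) and 3 further p53 targets lower. There were 25 higher members with DESeq2 size factors (14.9% of all tested genes), 26 with upper-quartile scaling (16.1%) and 28 with library totals (22.0%). With DESeq2 there were 23 (11.5%) and with limma-voom 26 (14.7%). With the replicate block 25 members were higher (13.9% of all tested genes). Same-numbered libraries deviated together with a correlation of 0.011. From 2 libraries per group this cannot show whether same-numbered libraries shared a culture or day, which the sources used here do not state.

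Leaving out 1 library in turn gave 10 to 16 members higher, 8 to 11 further p53 targets higher and 1 to 3 lower, 743 to 1439 of all tested genes higher and 871 to 1463 lower, and a members' median of 0.25 to 0.32. Ddb2 lay between -0.23 and 0.14 and was 0.067 without siNT replicate 1 and 0.14 without siCnot1 replicate 1. With 2 libraries per group, small changes such as those of Ppm1d and Ckap2 are at the limit of what the depth and replication can show.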
